A study of Mus musculus with 4 samples.

Results

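The region described here is a stretch of mouse chromosome 1 that holds Wnt6, Wnt10a, Ihh, Epha4 and Pax3. It was taken from 200 kb before the first base of Wnt6 to 200 kb after the last base of Pax3, at chr1:74571892-78397134 of mm10 (GENCODE gene bounds), which is 3825 kb. All peaks of the 5 deposited mm10 lists that fall in it were used, 51 and 55 peaks for CTCF, 10 and 24 for RAD21 and 43 for wild-type RAD21. Merged where they overlap, they form 69 sites of 33037 in the whole series. The CTCF and RAD21 libraries were made from 4 whole limbs at E12.5, in 2 biological replicates for each antibody. The embryos were TgN(38-40)/Wt; del(CS38-40)-/-, on the B6CBAF1 background. They carry a randomly integrated transgene with region CS38-40 of the HoxD locus, in a single line, on 1 copy of chromosome 10, and lack the endogenous region on both copies of chromosome 2. Chromosome 1 is not altered in this design. The wild-type RAD21 list is a single ChIP-seq library of E12.5 whole limbs from an earlier study, of a strain not given in the sources used here and made with another protocol, so genotype and protocol cannot be told apart. Input libraries were not used here.

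CTCF is a zinc finger protein that binds an asymmetric DNA motif, and RAD21 is a subunit of cohesin, the ring complex that extrudes chromatin loops. Cohesin is halted preferentially at CTCF whose motif points toward the inside of the loop, so that loops often join a plus-strand motif on the left to a minus-strand motif on the right, and neighbouring domains often meet where motifs diverge. Wnt6 and Wnt10a encode secreted Wnt ligands, Ihh encodes the hedgehog ligand of growth plate cartilage, Epha4 encodes an Eph receptor tyrosine kinase that guides axons and patterns limb muscle nerves, and Pax3 encodes a paired-box transcription factor of migrating limb muscle precursors and neural crest. The Epha4 interval is known for limb enhancers, and rearrangements that remove the borders between Epha4 and its neighbours are a known cause of digit malformations in which Wnt6, Ihh or Pax3 come under those enhancers.

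The reference sequences below are the CTCF motif matches at the sites on which the description turns, the sites at member genes and the sites at the edges of the Epha4 interval. They were read from GRCm38 (RefSeq) and are printed 5′ to 3′ on the strand of the motif, with the 19-base motif in capitals. Where a site lies in a UTR only the motif is shown. A 19-base model with the consensus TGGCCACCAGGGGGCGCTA was learned from CTCF peaks on other chromosomes, and a match lying wholly within 50 bp of a CTCF summit was counted when it passed the score that 5% of flanking sequences reached.
Wnt6 UTR site, plus, chr1:74784660-74784678: ATTCCAGCAGGGGGCGCTG
Site between Wnt6 and Wnt10a, plus, chr1:74787996-74788054: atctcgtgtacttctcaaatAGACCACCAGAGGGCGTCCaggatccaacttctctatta
Ihh intron site, plus, chr1:74948982-74949040: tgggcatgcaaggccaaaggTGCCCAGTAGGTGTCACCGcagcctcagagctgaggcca
Slc4a3 UTR site, minus, chr1:75559672-75559690: CCACCACCAGAGGGCTACA
Site beyond Slc4a3, minus, chr1:75597806-75597864: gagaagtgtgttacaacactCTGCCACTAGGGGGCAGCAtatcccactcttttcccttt
Left site of the tandem pair, plus, chr1:75652674-75652732: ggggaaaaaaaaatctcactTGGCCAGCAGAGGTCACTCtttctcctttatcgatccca
Right site of the tandem pair, plus, chr1:75653717-75653775: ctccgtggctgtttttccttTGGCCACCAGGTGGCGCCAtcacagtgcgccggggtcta
Left edge of the CTCF-free stretch, plus, chr1:75925891-75925949: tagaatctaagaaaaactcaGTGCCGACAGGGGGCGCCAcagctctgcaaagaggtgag
Right edge of the CTCF-free stretch, minus, chr1:77081813-77081871: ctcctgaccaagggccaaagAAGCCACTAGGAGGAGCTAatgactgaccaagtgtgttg
Epha4 start site, minus, chr1:77516422-77516480: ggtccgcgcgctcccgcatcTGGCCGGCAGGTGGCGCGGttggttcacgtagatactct
Left site of the diverging pair, minus, chr1:77972528-77972586: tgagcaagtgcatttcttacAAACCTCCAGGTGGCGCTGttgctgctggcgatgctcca
Right site of the diverging pair, plus, chr1:77978859-77978917: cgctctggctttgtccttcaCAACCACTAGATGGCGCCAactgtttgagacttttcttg
Last site before Pax3, minus, chr1:78008898-78008956: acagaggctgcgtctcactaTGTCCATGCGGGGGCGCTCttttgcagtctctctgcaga
The right site of the tandem pair matched 17 of the 19 consensus bases and scored at or above 99.8% of the best matches in the peaks used for learning. The last site before Pax3 scored at or above 18.6% of them, although it was among the strongest CTCF sites of the locus. The motif beyond Slc4a3 stood 77 bp from the CTCF replicate 1 summit and nearer the replicate 2 summit, but not wholly within the 50 bp window of either.

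CTCF occupied 60 of the 69 sites, of which 46 (76.7%, against 73.0% in the genome) were called in both replicates, 5 in replicate 1 alone and 9 in replicate 2 alone. Replicate 1 thus held 85.0% of them, against 82.1% in the genome, and replicate 2 held 91.7%, against 90.9%. The locus held 15.7 CTCF sites per Mb, against 9.74 on chromosome 1 as a whole and 11.5 on all autosomes. RAD21 of TgN(38-40) limbs stood at 6.27 sites per Mb in the locus and 5.95 on the autosomes. Wild-type RAD21 stood at 11.2 peaks per Mb in the locus and 8.27 on the autosomes. These are counts in lists of peaks, without a test, since peaks of a library are not replicates and the lists carry no read counts.

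The sites were spread very unevenly. From the left flank to the end of Slc4a3, a 990 kb stretch with Wnt6, Wnt10a, Ihh and 40 protein-coding genes in all, there were 44 CTCF sites, or 44.4 per Mb. From there to the Epha4 start, over 1953 kb, there were 6, or 3.07 per Mb. The 586 kb between the Epha4 start and Pax3 hold no protein-coding gene and had 8 CTCF sites, or 13.6 per Mb. Pax3 with the right flank, 296 kb, had 2. The split at the end of Slc4a3 was chosen after the values were seen. Between Ihh and Epha4 taken as a whole, 31 sites gave 12.8 per Mb, close to the autosomal density, with 25 of the 31 lying before the end of Slc4a3. The density plot shows the same order in each of the CTCF replicates.

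**Figure D1:**
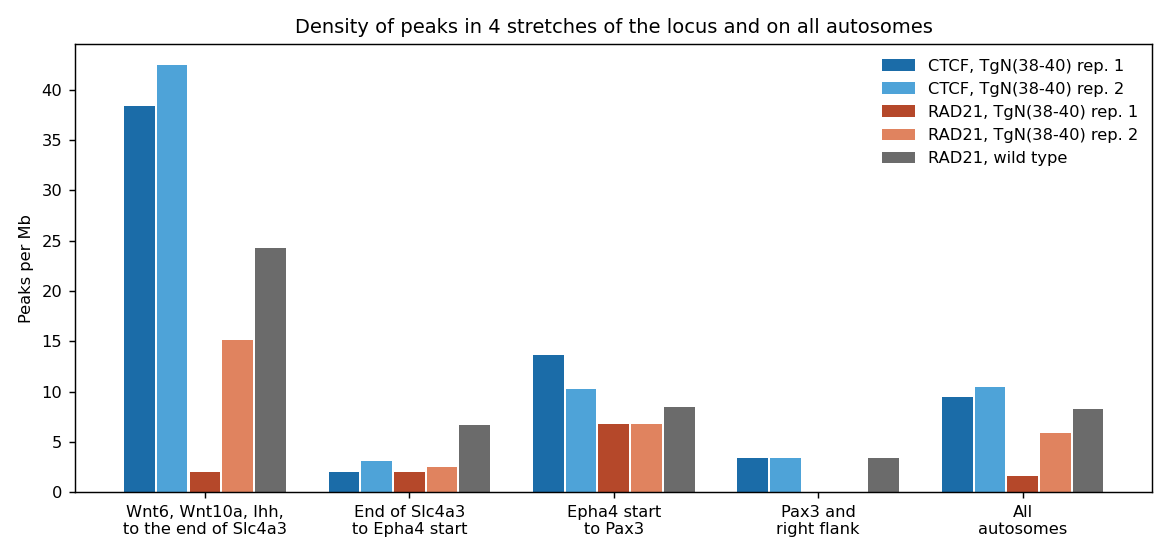
Peaks per Mb (vertical axis) in 4 stretches of the locus and on all autosomes, one bar for each peak list, without error bars because each bar is a single list. CTCF stands at 38.4 and 42.4 peaks per Mb up to the end of Slc4a3 and at 2.05 and 3.07 from there to the Epha4 start, against 9.51 and 10.4 on the autosomes.

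The longest stretch without a CTCF peak ran for 1156 kb, at chr1:75926060-77081812, left of Epha4, where the annotation has no protein-coding gene. Of the 28203 autosomal gaps between neighbouring CTCF sites, 176 (0.624%) were as long or longer, and the median gap was 32.2 kb. None of its bases is unknown in the reference. In the lists called on the custom genome it held 0 CTCF peaks as well. RAD21 of TgN(38-40) limbs had a longer gap still, 1462 kb to the Epha4 start site, which 159 of 14628 gaps (1.09%) equalled or exceeded. Wild-type RAD21 was called at 3 places inside the CTCF-free stretch.

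**Figure D2:**
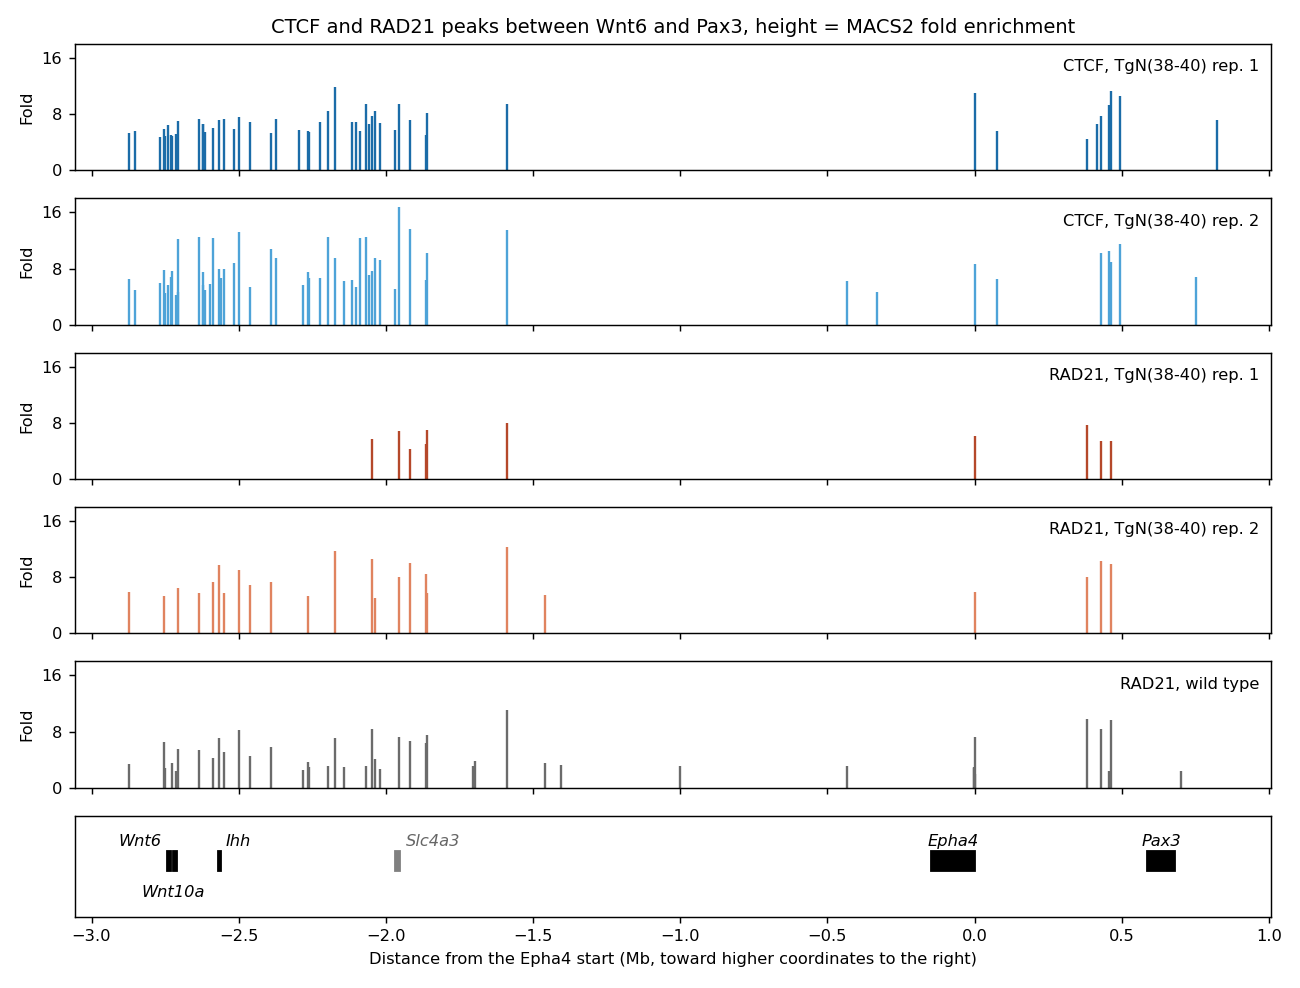
Fold enrichment of each peak (vertical axis, MACS2 fold over the local expectation) along the locus, as distance from the Epha4 start in Mb, with the 4 libraries of TgN(38-40) limbs above the wild-type library and genes as boxes. CTCF peaks crowd between Wnt6 and Slc4a3, and the RAD21 peaks of replicate 1 begin only about 2 Mb left of Epha4.

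At the Wnt genes CTCF was called with modest enrichment and little RAD21. Wnt6 had 3 CTCF sites within 5 kb of an annotated start, all inside the gene. The Wnt6 UTR site had folds of 5.00 and 6.76, with no RAD21 peak in any list. The other 2 lie side by side in an intron, at chr1:74775912-74776112 with a fold of 5.60 in replicate 2 alone and at chr1:74776179-74776356 with a fold of 6.52 in replicate 1 alone, and neither holds the motif. Neither of these intronic calls was therefore repeated in the other replicate. An antisense gene, Gm29539, covers the same intron.

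The site between Wnt6 and Wnt10a, 3256 bp from a Wnt10a start, had CTCF folds of 4.90 and 7.62, no RAD21 in TgN(38-40) limbs and a wild-type RAD21 fold of 3.59. In a UTR of Wnt10a, at chr1:74803028-74803379, CTCF had folds of 5.18 and 4.26 and wild-type RAD21 a fold of 2.37. In CTCF replicate 2 the first of these ranked 13176 of 26264, in the middle of the list, and the second ranked 25799, near its low end. The strongest CTCF peak near the pair stands just beyond the end of Wnt10a, at chr1:74808107-74808495 on the minus strand, with folds of 6.97 and 12.2. It had RAD21 in replicate 2 of TgN(38-40) limbs (fold 6.50) and in wild type (5.46).

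The Ihh intron site, 2214 bp from the gene's start, had CTCF folds of 7.21 and 7.91. RAD21 was called there in replicate 2 of TgN(38-40) limbs with a fold of 9.72 (rank 3057 of 14787), not in replicate 1, and in wild type with a fold of 7.05. Ihh was thus the only member gene with RAD21 of TgN(38-40) limbs in its body. A CTCF peak of replicate 2 alone (fold 6.66) lies 2571 bp from an Ihh start, in an exon of the unclassified transcript Gm37744. Between Wnt10a and Ihh, 8 CTCF sites stand in 141 kb, and the one with the best mean rank, at chr1:74880792-74881249 near Fev, a transcription factor gene of serotonergic neurons, had a fold of 7.35 in replicate 1 (rank 8239) and stood at rank 1938 in replicate 2.

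Epha4 had no CTCF peak in its 148 kb body, and a CTCF and RAD21 site just before its start. The Epha4 start site, 1118 bp from the nearest annotated start and in an exon of the lincRNA Gm28386, had CTCF folds of 11.0 (rank 536 of 23829) and 8.63 (rank 9900 of 26264). Its RAD21 folds were 6.16 and 5.91 in TgN(38-40) limbs and 7.18 in wild type, so it was called in all 5 lists. Its rank differed greatly between the CTCF replicates. In wild type alone, 3 weaker RAD21 peaks without CTCF lie in the gene, 1308, 495 and 13 bp from an annotated start, with folds of 2.96, 2.80 and 1.96, the last at rank 20814 of 20874.

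Pax3 had no CTCF or RAD21 peak in its body or within 5 kb of a start. The nearest CTCF peak was 70524 bp from a start (fold 6.77, replicate 2 alone), and the nearest RAD21 peak, in wild type alone, was 18640 bp away with a fold of 2.42. Another CTCF peak of replicate 1 alone, with a fold of 7.22, lies in an intron of Sgpp2. Neither of the 2 right-flank CTCF sites had a match wholly within 50 bp of the summit, although the first had a plus-strand match centred 47 bp from it that ran past the window.

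Thus 4 of the 5 member genes had CTCF within 5 kb of a start, and 35.0% of all protein-coding genes did. Of the 43 protein-coding genes of the locus, 23 had CTCF there (53.5%), 6 had RAD21 of TgN(38-40) limbs (14.0%, against 18.5% of all genes) and 15 had wild-type RAD21 (34.9%, against 26.1%). Among the genes nearest to the members, Prkag3, Fev, Cryba2 and Nhej1 had CTCF near a start, and Cdk5r2 and Cfap65 did not. The relatives of the member genes gave 11 of 19 Wnt ligands, 2 of 3 hedgehog ligands (Shh and Ihh, not Dhh), 8 of 14 Eph receptors, 7 of 8 ephrins and 3 of 9 Pax factors with CTCF within 5 kb. With RAD21 of TgN(38-40) limbs the counts were 8, 2, 7, 7 and 1, in the same order. Wnt6 and Wnt10a were 2 of the 3 Wnt ligands with CTCF and no RAD21 of TgN(38-40) limbs, Wnt10b being the other.

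RAD21 in TgN(38-40) limbs was seen at 23 of the 60 CTCF sites (38.3%), against 47.0% of all CTCF sites of the genome. Replicate 1 gave 10 of 60 (16.7%, against 13.5%) and replicate 2 gave 23 of 60 (38.3%, against 46.7%). In wild type it was 34 of 60 (56.7%, against 58.7%). At 26 of the 60 CTCF sites no list held a RAD21 peak, and in the genome this was so at 11289 of 28789. The lists differ in length, so the shares are set only beside those of the same list.

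The 10 sites with RAD21 in all 3 lists make up 16.7% of the CTCF sites, against 13.2% in the genome, and all lie between an Asic4 intron and the right site of the diverging pair, left of Pax3. Left of that intron site, RAD21 replicate 1 was called at 0 of 39 CTCF sites, replicate 2 at 12 and wild type at 20. From it rightward the counts were 10, 11 and 14 of 21. Over the genome, 26.2% of the RAD21 peaks of replicate 2 were also called in replicate 1. In the locus that was 10 of 24, namely 0 of 12 on the left and 10 of 12 on the right. The left peaks had a lower fold in replicate 2, with a median of 6.67, against 8.27 on the right, but they reached up to 11.8. That strongest left peak, at chr1:75342845-75343271 between Dnpep and Des, had a RAD21 rank of 1023 of 14787 in replicate 2, a wild-type fold of 7.07, and the best CTCF rank of the locus in replicate 1 (240 of 23829, fold 11.9). This split was chosen after the values were seen.

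CTCF enrichment was higher at the sites with RAD21. In replicate 2 the median CTCF fold was 9.54 at the 22 sites with RAD21 of TgN(38-40) replicate 2 and 6.50 at the other 33, and in the genome it was 8.91 and 6.59. In CTCF replicate 1 the medians were 7.25 and 6.53 in the locus, and 7.20 and 5.89 in the genome. The locus was thus close to the genome in this respect.

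**Figure D3:**
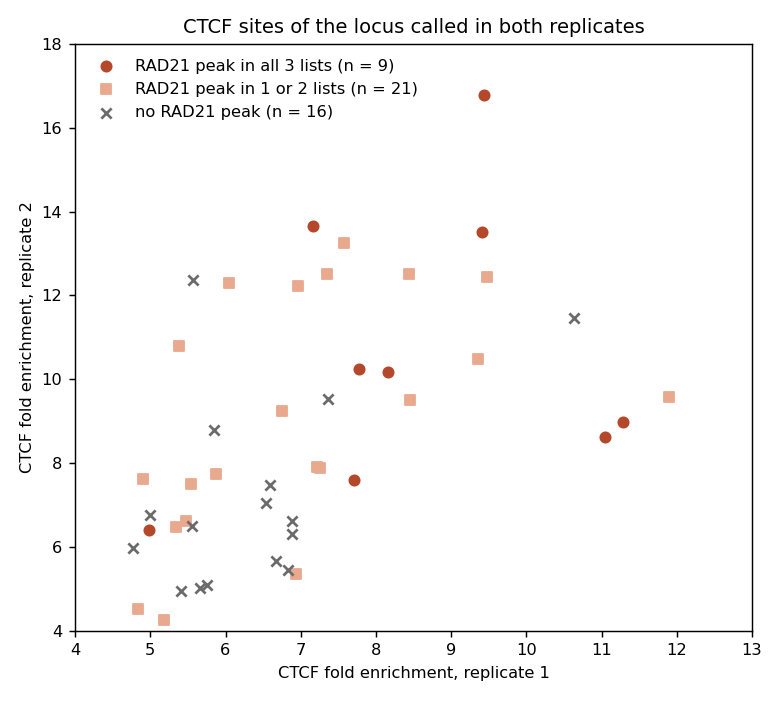
CTCF fold enrichment in replicate 1 (horizontal axis) and replicate 2 (vertical axis) at the 46 sites called in both, each point a site, marked by the number of RAD21 lists with a peak there. The 9 sites with RAD21 in all 3 lists range over folds of 4.98 to 11.3 in replicate 1, and sites with no RAD21 peak reach 10.6.

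The 5 CTCF sites with the best mean rank over both replicates were the Slc4a3 UTR site, the left edge of the CTCF-free stretch, the last site before Pax3, a site between Gmppa and Asic4, and a site at the start of Dnpep. The Slc4a3 UTR site, at chr1:75559482-75559927, had CTCF folds of 9.44 and 16.8 (ranks 2142 and 123), and RAD21 folds of 6.80 and 8.08 in TgN(38-40) limbs and 7.17 in wild type. The last site before Pax3, at chr1:78008788-78009064, had CTCF folds of 10.6 and 11.5 and no RAD21 peak in any list. At chr1:75445677-75446175, near Gmppa, CTCF had folds of 9.48 and 12.4, with RAD21 in wild type alone (3.03). The site at the start of Dnpep, an aminopeptidase gene, stood at ranks 4366 and 1928 in the CTCF lists, with no motif, and RAD21 in wild type alone (3.12). Strong CTCF in this locus therefore stood both with and without called RAD21. Among the top 10% of peaks by fold were 8 of the 51 peaks of CTCF replicate 1, 10 of 55 of replicate 2, 0 of 10 and 2 of 24 RAD21 peaks of TgN(38-40) limbs and 3 of 43 of wild type, where 10.0% is the share in every list.

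A match to the motif near the summit was found at 42 of the 60 CTCF sites (70.0%, against 74.0% of all CTCF sites). Of these, 23 lay on the plus strand (54.8%, against 50.4%) and 19 on the minus strand. The motif was present at 25 of the 34 CTCF sites with RAD21 in any list (73.5%, against 80.2%) and at 17 of the 26 without (65.4%, against 64.4%). The strand was the same at 42 of 42 sites when a window of 100 bp was searched and when the model was learned from replicate 1. Of 28 neighbouring pairs of motifs, 10 pointed to the right in tandem, 7 to the left in tandem, 6 converged and 5 diverged. Pair orientations were not counted over the genome, so none can be called frequent or rare here.

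Groups of 3 or more CTCF sites with gaps of at most 25 kb occurred 4 times, all left of Slc4a3. Such groups were not counted over the genome, where the median autosomal gap between CTCF sites was 32.2 kb. The first, from Prkag3 to beyond Wnt10a, had 10 sites in 60.4 kb, with 3 motifs on plus, 1 on minus and 6 sites without a match near the summit. Its CTCF folds ran between 4.76 and 6.97 in replicate 1 and between 4.26 and 12.2 in replicate 2, and RAD21 of TgN(38-40) limbs was called at 2 of the 10. The second, from Fev to beyond Ihh, had 9 sites in 84.1 kb, with 4 plus, 2 minus and 3 without a match near the summit, and RAD21 at 4. Over the whole site, some of the sites without in both groups did hold a match past the threshold. The best of these was on plus at chr1:74894900-74895577 in the second group, 67 bp from the replicate 1 summit. A diverging pair in the second group, 10929 bp apart, lies in introns of Cfap65, a gene of cilia and flagella. Its left arm had CTCF in replicate 2 alone (fold 5.78, rank 20436 of 26264) and no RAD21 in any list. Its right arm had CTCF in both replicates, with RAD21 in TgN(38-40) replicate 2 and in wild type. The third group, from Tuba4a to Ptprn, had 4 sites in 35.0 kb with 1 plus and 3 minus. The fourth, from Speg to Obsl1, genes of the muscle myosin kinase and obscurin families, had 8 sites in 96.9 kb. Of the motifs counted there, 6 pointed right, toward Epha4, and 1 left. The remaining site, in the Asic4 intron, had a left-pointing match 53 bp from its replicate 1 summit, outside the window. That match scored at or above 63.4% of the best matches in the peaks used for learning. The counted matches scored lower, the 6 right-pointing ones at or above 19.05% to 41.9% of them and the left-pointing one 20.55%. RAD21 of the group lay at 2 sites in TgN(38-40) limbs, and at 1 of them, the Asic4 intron site, in both replicates. The other diverging pairs stand in Nhej1, between Tuba4a and Dnajb2, between Obsl1 and Slc4a3, and between Epha4 and Pax3.

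On the left side of the Epha4 interval stood a run of 5 CTCF sites called in all 5 lists. Read from left to right, the Slc4a3 UTR site pointed left, the site beyond Slc4a3 pointed left by the match 77 bp from its replicate 1 summit, and the tandem pair and the left edge of the CTCF-free stretch pointed right, toward Epha4. The site beyond Slc4a3, at chr1:75597521-75598065, had CTCF folds of 7.17 and 13.7 and RAD21 folds of 4.21 and 10.1 in TgN(38-40) limbs and 6.71 in wild type. The tandem pair, with motifs 1024 bp apart, had CTCF folds of 4.98 and 6.40 on the left and 8.16 and 10.2 on the right. Its RAD21 folds were 4.94 and 8.46 in TgN(38-40) limbs and 6.40 in wild type on the left, and 6.99 and 5.80 in TgN(38-40) limbs and 7.51 in wild type on the right. Some calls of the run were near the low end of their lists. In RAD21 replicate 1 the site beyond Slc4a3 ranked 4055 of 4102, and the left site of the pair ranked 3692. In CTCF replicate 1 that left site ranked 20079 of 23829. The left edge of the CTCF-free stretch, at chr1:75925678-75926248, had CTCF folds of 9.41 and 13.5. Its RAD21 folds, 7.91 and 12.3 in TgN(38-40) limbs (ranks 483 and 717) and 11.0 in wild type (rank 176), were the highest of the locus in each of the 3 lists.

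The turn in strand between the site beyond Slc4a3 and the tandem pair, 54.945 kb wide, was not among the 5 diverging pairs, because the first motif lay outside the 50 bp window. Across the CTCF-free stretch the next motif, at its right edge, pointed left, so that both edges faced inward over 1155903 bp. The right edge was the weaker, with CTCF in replicate 2 alone (fold 6.26, rank 18681) and RAD21 in wild type alone (3.08). The only other CTCF site before Epha4, at chr1:77184147-77184328, had a fold of 4.73 in replicate 2 and no motif. The Epha4 start site, further right, also pointed left, toward the gene body and the gap.

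**Figure D4:**
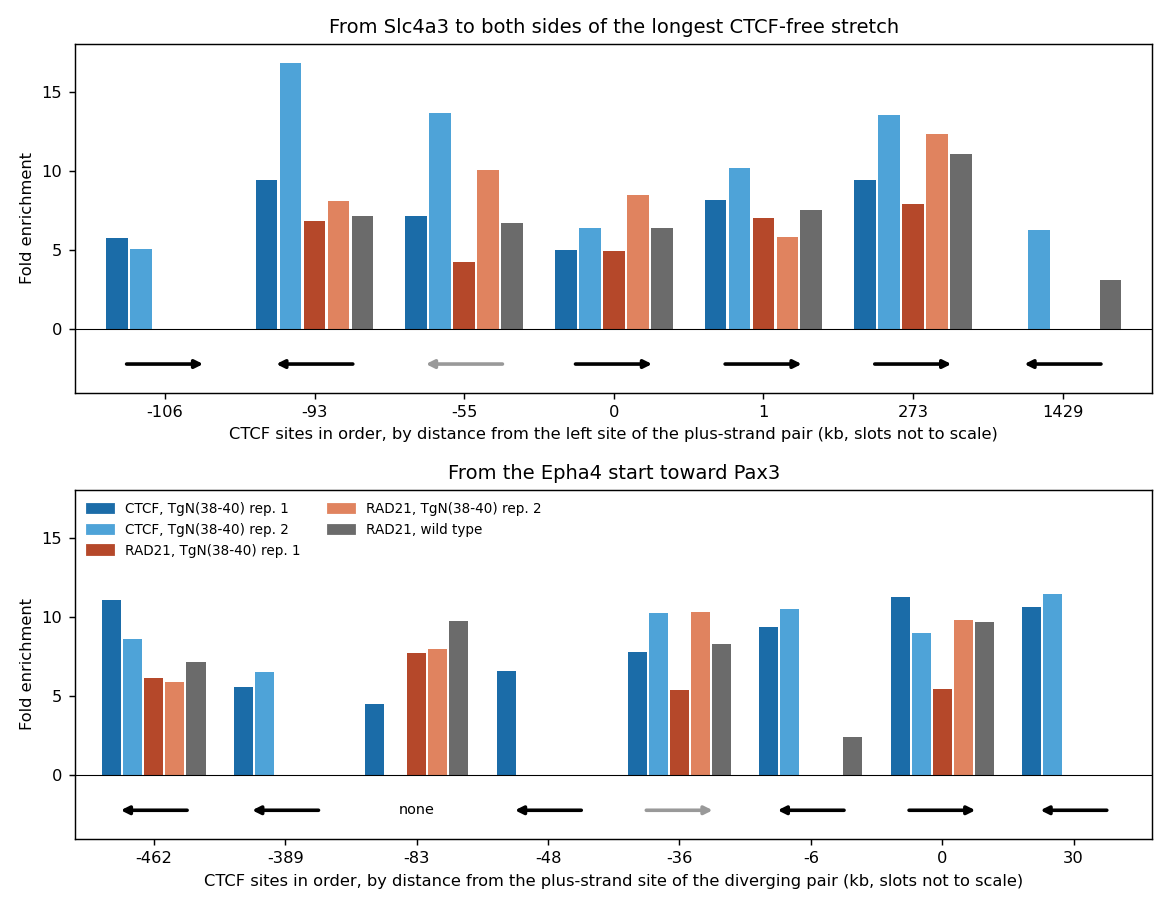
Fold enrichment (vertical axis) in each list at CTCF sites in order along the chromosome, labelled by distance in kb from the left site of the tandem pair (top) and from the right site of the diverging pair (bottom), with the bars of TgN(38-40) limbs left of wild type. Arrows give the motif strand, gray where the motif lay between 50 and 100 bp from the summit, and the top panel turns from left-pointing to right-pointing between -55 and 0 kb.

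Between Epha4 and Pax3 the motifs pointed mostly left, back toward Epha4, with 5 on the minus strand, 1 on the plus strand and 2 sites without a match near the summit. RAD21 of TgN(38-40) limbs was called at 4 of the 8, each time in both replicates and in wild type. When gaps of up to 50 kb were allowed, a setting added after the values were seen, 6 of the 8 sites formed a group, within 113 kb in the part of the interval nearer Pax3. The first of these, at chr1:77896220-77896722, combined the strongest RAD21 between Epha4 and Pax3 in replicate 1 and wild type with the weakest CTCF. Its RAD21 folds were 7.72 (rank 598 of 4102) and 8.00 in TgN(38-40) limbs and 9.77 in wild type, and its only CTCF peak was in replicate 1, with a fold of 4.53 (rank 21845 of 23829). No motif stood within 100 bp of its CTCF summit, and the best match over the whole site, on the minus strand, lay 125 bp away. The next RAD21 site, at chr1:77943050-77943561 in an exon of the lincRNA Gm28387, had CTCF folds of 7.78 and 10.2 and RAD21 folds of 5.42 and 10.3 in TgN(38-40) limbs and 8.30 in wild type. A plus-strand match lay 61 bp left of its CTCF replicate 1 summit and to the right of its replicate 2 summit.

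The diverging pair followed, with motifs 6312 bp apart, the closest of the 5 diverging pairs of the locus. Its left site, at chr1:77972368-77972812, had CTCF folds of 9.36 and 10.5, no RAD21 in TgN(38-40) limbs and a wild-type RAD21 fold of 2.42. Its right site, at chr1:77978640-77979124, had CTCF folds of 11.3 (rank 435) and 8.99 and RAD21 folds of 5.44 and 9.82 in TgN(38-40) limbs and 9.69 in wild type. CTCF was thus called in both replicates on both arms, whereas RAD21 was called in all 3 lists on the right arm alone. The right site and the last site before Pax3, 30020 bp further, converge. Of the remaining sites, that at chr1:77589396-77589712 (folds of 5.55 and 6.50) and that at chr1:77930780-77930985 (6.57, replicate 1 alone) pointed left and had no RAD21.

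RAD21 stood without CTCF at 9 sites, 8 of them called in wild type alone. By list these were 0 of 10 peaks (4.44% in the genome) and 1 of 24 peaks (8.89%) in TgN(38-40) limbs and 9 of 43 (20.9%, against 19.1%) in wild type. Of the 9, 5 lay between Slc4a3 and Epha4, 3 in the first part of Epha4 and 1 in the right flank. The one shared site, at chr1:76053771-76054219, is 128 kb beyond the left edge of the CTCF-free stretch and inside it, with a fold of 5.41 in TgN(38-40) replicate 2 and 3.50 in wild type. Wild-type folds over the 9 sites ran between 1.96 and 3.78.

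All 24 RAD21 sites of TgN(38-40) limbs in the locus had a wild-type peak (100%, against 93.4% in the genome), whereas 24 of the 43 wild-type peaks had a peak in TgN(38-40) limbs (55.8%, against 66.9%). The 19 called in wild type alone were among the weaker peaks of that list. At CTCF sites their folds ran between 2.37 and 3.59, with a median of 2.89 (11 sites), and at the 24 shared sites the wild-type folds ran between 3.40 and 11.0, with a median of 6.65. No RAD21 site of the locus was called in TgN(38-40) limbs alone. With 1 wild-type library of another protocol and unknown depths, these counts were not tested.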

How the data were processed

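CTCF and RAD21 were profiled by ChIPmentation, in which adapters are inserted into the precipitated chromatin by Tn5. Alignment was made by the authors with Bowtie2 (2.3.4.1), to mm10 and separately to a custom genome that carries the transgene, after trimming with cutadapt (1.16), and peaks were called per replicate with MACS2 (2.1.1.20160309), versions as in the submitters' processing notes. The deposited values are the MACS2 fold enrichment, a ratio to the local expectation, −log10 p, −log10 q and an integer score that the authors' caller derives from q and that was not used. The MACS2 control and the read depth are not given in the sources used here, so the precision of a fold is unknown, and a site absent from a list was below its threshold, which is not the same as unbound. Folds were compared within a list only.

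Peaks of the 5 mm10 lists were merged where they overlapped by at least 1 bp. The wild-type list, which names no sample of the series, was used as a single list. The motif model was learned from 2000 CTCF peaks of replicate 2, after the strongest 100, off chromosomes 1 and 2, oriented so that 3 of 3 sites of region CS38-40 are on the minus strand, and tested on simulated data together with the overlap step. Genes are GENCODE M21. Percentages of the genome are over the autosomes, X and Y. No test was run: 2 replicates of a single genotype and peak lists without counts allow none. Sites named are those within 5 kb of a member start or in a member gene, the 5 best by mean CTCF rank, the best of each interval, candidate boundary groups and diverging pairs, and RAD21 peaks without CTCF; for the groups, sites are summarised. The member genes, lists and rules were chosen with earlier results of these data known. Python 3.11.15, numpy 2.4.6, pandas 2.3.3, pysam 0.24.0 and matplotlib 3.10.9 were used.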

Additional observations from a re-analysis of the deposited data

Results flagged for a closer look

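The lists that the authors called on the custom genome, where all reads were kept, were used only as an alternative, and they held 3 CTCF sites of the locus at no site of any mm10 list. They lie at chr1:75182611-75182741 near Abcb6 (fold 3.98, replicate 2 alone), at chr1:75460744-75460948 in Asic4, and at chr1:75461215-75461384 beside it (fold 3.88, replicate 2 alone). The site in Asic4 had CTCF folds of 4.58 and 4.63 and a RAD21 fold of 6.86 in replicate 2, and all its bases (100%) are soft-masked repeats in the reference. The site beside it is 100% soft-masked too, and the site near Abcb6 is 3.82% soft-masked. These signals were called with no input or control list beside them, and the part of multiply mapped reads in them was not tested. A RAD21 peak of replicate 1 at chr1:74813067-74813180, with a fold of 6.83, was also called on the custom genome alone and is 100% soft-masked. Conversely, 1 of the 10 RAD21 peaks of replicate 1 in the locus and 1 CTCF peak of replicate 2 were called on mm10 alone.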

How the results depend on the processing

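No paired analysis was possible because the results come from no test, and nothing in the sources used here says that lists of the same replicate number share chromatin. Of the alternatives tried, 39 values were classed as the same and 10 as moved, but some of the 39 differed clearly. The share of CTCF sites with RAD21 was 26.7% with a reciprocal overlap of at least 50%, in place of 38.3%. At a −log10 q of at least 10 it was 29%. The share of wild-type RAD21 peaks found in TgN(38-40) limbs was 45.2% at a −log10 q of at least 5, in place of 55.8%. Relative to the genome, the share of CTCF sites with RAD21 was lower with both replicates (38.3%, against 47.0%) and higher without RAD21 replicate 2 (16.7%, against 13.5%). With the best match at any score, 48.3% of the motifs were on the plus strand, in place of 54.8%. At a −log10 q of at least 10 the number of CTCF sites was 31 (60 with every deposited peak), the density between Ihh and Epha4 was 7.45 per Mb and that between Epha4 and Pax3 was 8.53. Leaving out 1 replicate gave a share of CTCF sites with RAD21 between 16.7% and 45.1%, the lowest without RAD21 replicate 2, and a share of wild-type RAD21 peaks found in TgN(38-40) limbs between 23.3% and 55.8%, again lowest without RAD21 replicate 2. The number of CTCF sites without 1 replicate was 51 to 55. Within 1 kb of a start, 1 member gene had a CTCF or RAD21 site in place of 4, namely Epha4 through wild-type RAD21 peaks, and none had CTCF. With an equal number of top peaks (4102) from each RAD21 list, 75% of the sites of TgN(38-40) limbs (12 sites) had a wild-type peak and 90% of the wild-type peaks (10) the reverse. The order of the shares thus turned round. However, 2 lists were joined for TgN(38-40) limbs and 1 was used for wild type, so the compared sets were still of unequal length. Ranked by −log10 p or q in place of fold, 3 of the 5 best CTCF sites stayed. Groups with gaps of up to 50 kb, the split at the end of Slc4a3, the split at the Asic4 intron site, the whole-site motif search and the custom genome check of the CTCF-free stretch were chosen after seeing the data. The unknown depth limits every call of an absent peak, above all in RAD21 replicate 1, which has the shortest list.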
